A study of Mus musculus with 6 samples.

Results

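Yap1, Wwtr1, Tead1, Tead2, Lats1, Lats2, Amotl2, Ankrd1, Cyr61 and Ctgf, genes of the YAP/TEAD pathway and its targets, were followed in mouse cells at the start of reprogramming. The genes were chosen by name for their place in the pathway, with earlier results of these data known. Of the 10 genes, 10 were found among the 16982 genes of the count table. RNA-seq was made from 3 WT and 3 Rnf20 knockout samples of reprogrammable cells, which are mouse embryonic fibroblasts (MEFs) made to express OCT4, SOX2, KLF4 and C-MYC (OSKM) from retroviruses, and all 6 were harvested on day 3. The strain was C57BL/6. RNF20 is the E3 ligase that, with RNF40, attaches a single ubiquitin to histone H2B. Knockout cells came from Rnf20 Flox/Flox; Tamoxifen-cre mid-gestation embryos, in which the Cre recombinase is expressed ubiquitously and is switched on by 4-OH tamoxifen, and the drug was given for 3 continuous days. WT cells were Rnf20+/+. The labels list all 6 samples as untreated, and it is not stated whether the WT cells carried the Cre or received the drug. Once infected, the cells were moved to a feeder layer of MEFs whose division had been stopped with mitomycin-C, so that feeder RNA may be in each library. The labels do not say whether replicates came from separate embryos or cultures, so p-values measure only the spread between these samples. The WT spread may be technical, whereas the knockout libraries differ in Y-linked RNA, as given below, and so do not all share 1 source.

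The Hippo pathway is a kinase cascade that restrains the coactivators YAP (Yap1) and TAZ (Wwtr1). MST kinases and their scaffolds activate LATS1 and LATS2, LATS kinases phosphorylate YAP and TAZ, and phosphorylated YAP and TAZ are kept in the cytoplasm or degraded. Unphosphorylated YAP and TAZ enter the nucleus, where they bind DNA through TEAD factors. In fibroblasts the pathway is known for its response to cell density, the actin cytoskeleton and matrix stiffness, and Ctgf, Cyr61 and Ankrd1 are the usual readouts of YAP and TAZ activity. Lats2 and Amotl2 are at once inhibitors of YAP and TAZ and target genes. Most of this control acts on phosphorylation and location of the proteins, which RNA-seq does not measure.

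The DNA motif that TEAD factors bind was looked for upstream of the genes, since it is the sequence through which YAP and TAZ reach their targets. The letters searched were GGAATG and, on the other strand, CATTCC, in the 250 bases before each RefSeq transcript start (GRCm38.p6). A window was given for 8 of the 10 genes, those other than Tead1 and Ctgf, and 5 of the 8 held the motif. Of 27025 genes with a window, 14.4% held it. The other pathway lists, described below, were searched in the same way. The motif was held by 3 of the 11 other YAP and TAZ target genes with a window. Among Hippo kinases and scaffolds 3 of 12 held it, and among adaptors 2 of 5. Of the TEAD or VGLL genes 3 of 4 did, and of the CCN genes 0 of 1. The matches of the 5 genes are shown with their flanks, 5′ to 3′ on the strand of the gene. The matched letters are in capitals, and the pieces place the motif in the genes whose RNA levels follow.
Yap1: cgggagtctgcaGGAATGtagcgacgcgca
Wwtr1: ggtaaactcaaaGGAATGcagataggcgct
Amotl2: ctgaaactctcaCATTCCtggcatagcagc
Ankrd1, distal: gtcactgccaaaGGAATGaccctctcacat
Ankrd1, proximal: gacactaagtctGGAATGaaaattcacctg
Cyr61: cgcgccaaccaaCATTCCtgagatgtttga
The Yap1 piece lay at chr9:8004720-8004749 (minus strand), with the motif beginning at position -141 from the start. The Wwtr1 piece lay at chr3:57576029-57576058 (minus strand), with the motif at -136 from one annotated start and -170 from another. The Amotl2 piece lay at chr9:102717727-102717756 (plus strand), with the motif at -65. The Ankrd1 pieces lay at chr19:36120037-36120066 and chr19:36119950-36119979 (minus strand), with the motif at -210 and -123. The Cyr61 piece lay at chr3:145650071-145650100 (minus strand), with the motif at -103. The Amotl2 and Ankrd1 pieces also overlapped exons of the same genes in GENCODE.

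The whole 250-base window of Cyr61, chr3:145649986-145650235 (minus strand), is shown because Cyr61 is a much used reporter of TEAD activity and its RNA was the most abundant of the 10 genes per length, with the TEAD match in capitals.
Cyr61 promoter: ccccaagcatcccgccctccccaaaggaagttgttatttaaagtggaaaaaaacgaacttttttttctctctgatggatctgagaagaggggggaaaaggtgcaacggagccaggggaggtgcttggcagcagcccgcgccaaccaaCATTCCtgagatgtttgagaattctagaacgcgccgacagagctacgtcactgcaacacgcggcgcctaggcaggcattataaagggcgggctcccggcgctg
No window of Tead2, Lats1 or Lats2 held the TEAD letters. The AP-1 motif TGANTCA, found in 6.75% of 32851 windows, and the CArG box bound by SRF, found in 1.47%, were in none of the windows of the 8 genes. A match to these letters describes the sequence and is not evidence that a factor was bound.

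Rnf20 (ENSMUSG00000028309, chr4:49632006-49656887, plus strand, GRCm38) was checked first. It had 107, 107 and 106 CPM (counts scaled to the library total, with TMM factors) in WT replicates 1 to 3. In knockout replicates 1 to 3 it had 18.7, 18.5 and 16.4 CPM, which is 16.8% of the WT level. In the paper the LoxP sites flank only some of the exons. The counts are per gene and do not separate these exons from the others, so 16.8% is not the share of intact RNA. The libraries held 20545442 to 21746898 counts, at which 3 counts equal 0.138 to 0.146 CPM. The third knockout library stood apart: the chi-square statistic per gene against the other knockout libraries was 92.4 and 101, whereas every pair of libraries without it gave between 6.04 and 8.92 within a genotype. The Y-linked gene Ddx3y had no count in knockout replicates 1 and 3 and 1990 to 2686 counts in the other 4 libraries, and a fit with a term for its presence leaves only knockout replicate 2 to set against the WT libraries. Among 5 lists of cell type markers, the 10 fibroblast markers summed to 30914 to 33884 CPM (here without TMM factors) in WT, to 31641 and 38598 in knockout replicates 1 and 2, and to 21159 in knockout replicate 3. Most of the sum was Col1a1, Col1a2 and Col3a1. Each of the 10 markers had counts in all 6 libraries, but not all kept their level in knockout replicate 3. With TMM factors, Lum had 21.3 CPM there against 134 to 162 in WT, and Col3a1 1899 against 5255 to 5944. Dcn was higher there, at 243 CPM against 161 to 201.

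Across the 13386 genes tested, 33.0% passed an adjusted p of 0.05 by edgeR's quasi-likelihood test, 16.4% higher and 16.6% lower in the knockout, around a median log2 fold change of -0.00032. All 10 YAP/TEAD genes were tested and 6 passed. Lats2, Amotl2, Ankrd1, Cyr61 and Ctgf were higher in the knockout, Tead2 was lower, and Yap1, Wwtr1, Tead1 and Lats1 did not pass. The median log2 fold change of the 10 genes was 0.38, with 9 positive and 1 negative. In this edgeR fit, Amotl2 and Ctgf also met the study's own thresholds (adjusted p under 0.01, a fold change over 2 and an FPKM over 1). Of all genes, 1.50% met them in the higher and 2.08% in the lower direction. The authors' own calls were not used, and their counts of genes differ from these. In 7 of the 10 genes every knockout library lay above every WT library, as in 26.6% of all genes, and in 1 every knockout library lay below, as in 28.2%. The fit with the term for Ddx3y sets only knockout replicate 2 against WT, and most calls over all genes were lost in it. Most of the 6 genes also lost their call there, but all kept their direction. Their log2 fold changes were -0.76 (Tead2), 1.47 (Ctgf), 0.99 (Amotl2), 0.58 (Cyr61), 1.32 (Ankrd1) and 0.47 (Lats2).

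**Figure D1:**
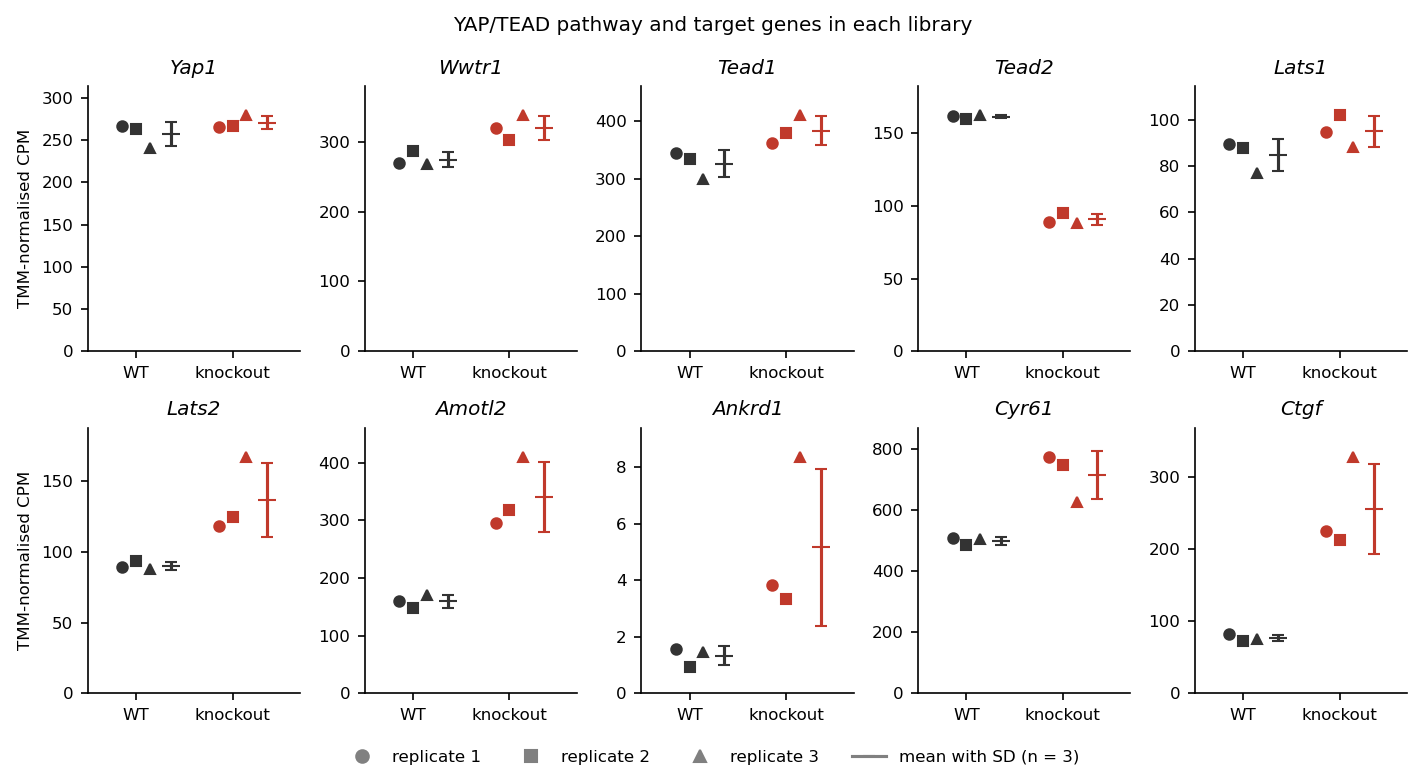
TMM-normalised CPM of the 10 genes in each of the 3 WT and 3 Rnf20 knockout libraries, on linear axes that start at 0, one panel for each gene, with symbols for the replicate number and bars for the mean with SD (n = 3). The knockout points of Ctgf, Amotl2, Ankrd1, Lats2, Cyr61, Wwtr1 and Tead1 lie above all WT points. Those of Tead2 lie below them, and those of Yap1 and Lats1 overlap with WT. Knockout replicate 3 is the highest point for Ctgf, Amotl2, Ankrd1, Lats2, Tead1, Wwtr1 and Yap1. It is the lowest knockout point for Cyr61, Lats1 and, narrowly, Tead2.

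The coactivators were examined first, since they carry the signal from the kinases to the nucleus. Yap1 (ENSMUSG00000053110, chr9:7931999-8004596, minus strand, GRCm38) had 267, 264 and 241 CPM in the WT libraries and 266, 267 and 279 CPM in the knockout libraries. The groups overlapped, with a log2 fold change of 0.07 (SE 0.071, adjusted p = 0.456). Its paralogue Wwtr1 (ENSMUSG00000027803, chr3:57455649-57575910, minus strand), which codes for TAZ, had 269, 287 and 267 CPM in WT and 320, 302 and 337 CPM in the knockout. The Wwtr1 groups did not overlap, but the log2 fold change of 0.22 (SE 0.073) had an adjusted p of 0.0563 and did not pass. Without knockout replicate 3, Wwtr1 passed at an adjusted p of 0.0206 with a log2 fold change of 0.18, and DESeq2 gave an adjusted p of 0.0300 on all libraries. In the remaining 11 of 13 other fits Wwtr1 did not pass. With library size only, in place of TMM factors, its adjusted p was 0.137, and with the replicate number as a block it was 0.131. Over all genes, 6510 of 13529 passed without knockout replicate 3, so a call gained in that fit, here and below, is common to many genes. Per length, Yap1 stood at 68.9 ± 3.47 FPKM (SD, n = 3) and Wwtr1 at 73.3 ± 2.35 FPKM in WT, and at 72.3 ± 1.59 and 84.3 ± 2.58 FPKM in the knockout. The FPKM ratio of Yap1 to Wwtr1 within a library was 0.991, 0.928 and 0.901 in WT and 0.830, 0.882 and 0.862 in the knockout. These ratios did not overlap and differed by -0.13 on the log2 scale, with a two-sided exact permutation p of 0.10, the smallest that 3 against 3 libraries can give. An exon of the antisense transcript Gm20416 overlaps Yap1, and whether the counting used the strand was not given in the sources used here. Gm20416 had no entry of that name in the count table.

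Of the TEAD factors, the DNA-binding partners of YAP and TAZ, Tead2 fell and Tead1 did not pass. Tead2 (ENSMUSG00000030796, chr7:45215753-45233644, plus strand) had 162, 160 and 162 CPM in WT and 88.8, 95.3 and 88.0 CPM in the knockout. The groups lay far apart compared with the spread inside each, and the log2 fold change was -0.83 (SE 0.065, adjusted p = 0.00178), a level 0.562 times that of WT. Tead2 passed in each of 13 other fits, including those that left out each library in turn, with a log2 fold change of -0.81 when knockout replicate 3 was left out. Cd37 on the opposite strand overlaps an exon of Tead2 but had only 7 to 36 counts in any library. Tead1 (ENSMUSG00000055320, chr7:112679318-112906807, plus strand) had 344, 334 and 299 CPM in WT and 361, 379 and 409 CPM in the knockout. Every knockout library was above every WT library, but the log2 fold change of 0.23 (SE 0.086) had an adjusted p of 0.0764. Without knockout replicate 3, Tead1 passed at an adjusted p of 0.0389 with a log2 fold change of 0.19. In the remaining 12 of 13 other fits Tead1 did not pass. Limma on log2(FPKM + 1) gave a log2 fold change of 0.12 (adjusted p = 0.279). In bulk RNA, fewer cells of a kind and less RNA in each cell cannot be told apart, here and in what follows.

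The makeup of the TEAD family differed between the genotypes in every library. All 4 TEAD genes were measured, and Tead3 and Tead4 did not pass, with log2 fold changes of -0.22 (adjusted p = 0.179) and 0.07 (adjusted p = 0.741). Tead3 had 63.8, 65.2 and 62.3 CPM in WT and 49.3, 50.6 and 64.4 CPM in the knockout, and without knockout replicate 3, the one that overlapped with WT, it passed as lower (log2 fold change -0.35, adjusted p = 0.00105). Tead2 gave 51.3, 51.2 and 54.5% of the summed TEAD FPKM in the WT libraries and 38.7, 39.5 and 36.4% in the knockout libraries. Tead1 gave 30.4, 29.9 and 26.9% in WT and 41.3, 41.7 and 39.7% in the knockout. Tead2 was thus the most abundant TEAD transcript per length in every WT library, and Tead1 in every knockout library. The FPKM ratio of Tead1 to Tead2 was 0.592, 0.583 and 0.493 in WT and 1.07, 1.06 and 1.09 in the knockout, a difference of 0.95 on the log2 scale (two-sided exact permutation p = 0.10, the smallest possible). Tead3 contributed 16.8 ± 0.372% (SD, n = 3) in WT and 18.5 ± 2.69% in the knockout, and Tead4 1.79 ± 0.087% and 2.43 ± 0.560%. The summed TEAD FPKM was 144, 143 and 142 in WT and 106, 110 and 114 in the knockout, whereas the sum of Yap1 and Wwtr1 was 143, 147 and 137 FPKM in WT and 157, 153 and 160 FPKM in the knockout. The 2 sums were about equal in each WT library, and the coactivator sum was the larger in each knockout library.

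**Figure D2:**
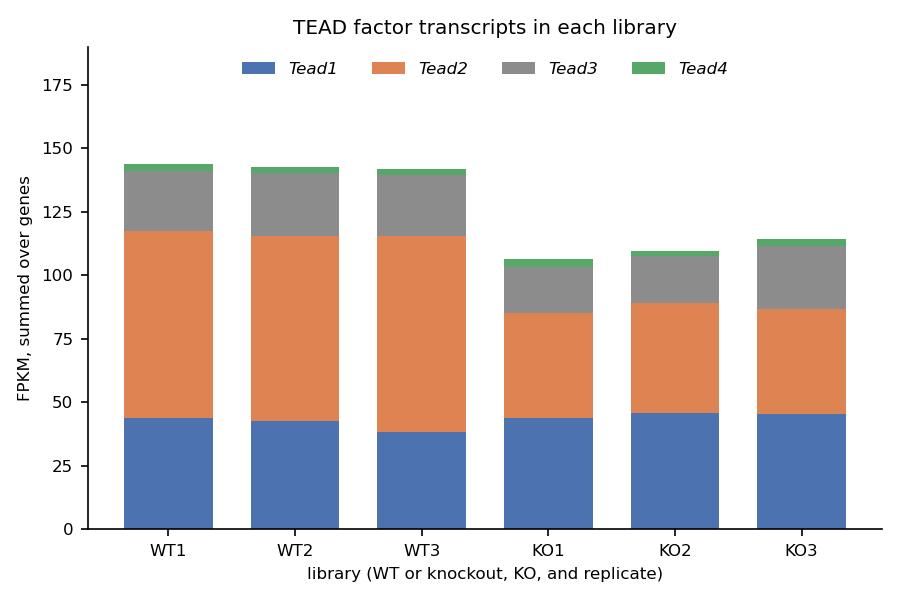
Stacked FPKM of Tead1, Tead2, Tead3 and Tead4 in each WT and Rnf20 knockout library, on a linear axis that starts at 0. The WT stacks reach 142 to 144 FPKM with Tead2 the largest layer, and the knockout stacks reach 106 to 114 FPKM with Tead1 the largest layer.

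Of the LATS kinases, which phosphorylate YAP and TAZ, Lats2 was higher in the knockout and Lats1 did not pass. Lats1 (ENSMUSG00000040021, chr10:7681214-7716460, plus strand) had 89.8, 88.0 and 77.1 CPM in WT and 94.9, 102 and 88.3 CPM in the knockout. These groups overlapped, with a log2 fold change of 0.16 (SE 0.092, adjusted p = 0.212), and without knockout replicate 3 the log2 fold change was 0.21 (adjusted p = 0.0381). In the remaining 12 of 13 other fits Lats1 did not pass. Lats2 (ENSMUSG00000021959, chr14:57689662-57758388, minus strand), itself a target gene of YAP and TAZ, had 89.2, 93.2 and 87.7 CPM in WT and 118, 125 and 167 CPM in the knockout. Every knockout value was above every WT value, and knockout replicate 3 was the highest. The log2 fold change was 0.60 (SE 0.135, adjusted p = 0.0185), and 0.43 without knockout replicate 3. Of the fits with 1 library left out, the call was lost without WT replicate 1, 2 or 3 (adjusted p = 0.0705, 0.0661 and 0.0788). In these the log2 fold change stayed between 0.58 and 0.62, and with the term for Ddx3y it was 0.47. The FPKM ratio of Lats1 to Lats2 was 0.830, 0.760 and 0.707 in WT and 0.630, 0.647 and 0.378 in the knockout, a difference of -0.51 on the log2 scale (two-sided exact permutation p = 0.10, the smallest possible), or -0.26 without knockout replicate 3. Gm49361, annotated on the same strand, shares exon sequence with Lats2, so the Lats2 counts depend on how such reads were assigned. No gene of the name Gm49361 was in the count table.

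Amotl2, an angiomotin-like protein that binds YAP and TAZ, holds them out of the nucleus and is also a target gene, was higher in the knockout. Amotl2 (ENSMUSG00000032531, chr9:102716672-102733418, plus strand) had 160, 149 and 170 CPM in WT and 295, 317 and 409 CPM in the knockout. The lowest knockout library was well above the highest WT library. The log2 fold change was 1.09 (SE 0.134, adjusted p = 0.00394), a level 2.13 times that of WT, and it was 0.94 without knockout replicate 3. Amotl2 passed in 12 of 13 other fits, the exception being that with the term for Ddx3y. The 2 other angiomotin genes did not pass, with log2 fold changes of -0.24 (adjusted p = 0.417) for Amot and -0.07 (adjusted p = 0.583) for Amotl1, and without knockout replicate 3 the values were -0.0095 and 0.011.

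Ctgf, Cyr61 and Ankrd1 are the targets by which YAP and TAZ activity is usually read. Ctgf and Cyr61 code for secreted matricellular proteins of the CCN family, which bind integrins. Ctgf (ENSMUSG00000019997, named Ccn2 in the annotation, chr10:24595442-24598683, plus strand) had 81.7, 73.3 and 75.9 CPM in WT and 226, 213 and 327 CPM in the knockout. The WT libraries were close together and all 3 knockout libraries lay far above them. The log2 fold change was 1.73 (SE 0.171, adjusted p = 0.00287), a level 3.32 times that of WT, and it was 1.51 without knockout replicate 3. Ctgf passed in each of 13 other fits. The antisense transcript Gm15270 overlaps an exon of Ctgf and had no entry of that name in the count table.

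Cyr61 (ENSMUSG00000028195, named Ccn1 in the annotation, chr3:145646976-145649981, minus strand), whose promoter window is printed above, had 510, 485 and 504 CPM in WT and 772, 748 and 625 CPM in the knockout. Knockout replicate 3 was here the lowest of the knockout libraries, the reverse of its place for Ctgf, but still above all WT libraries. The log2 fold change was 0.52 (SE 0.097, adjusted p = 0.0110), and 0.61 without knockout replicate 3. Of the fits with 1 library left out, the call was lost without WT replicate 2 (adjusted p = 0.0557) or WT replicate 3 (adjusted p = 0.0551). With the term for Ddx3y the log2 fold change was 0.58. The FPKM ratio of Cyr61 to Ctgf was 6.70, 7.16 and 7.15 in WT and 3.69, 3.71 and 2.13 in the knockout. The ratio thus differed by -1.19 on the log2 scale (two-sided exact permutation p = 0.10, the smallest possible), and by -0.92 without knockout replicate 3. The exact permutation p, adjusted over the 4 ratios of related genes, was 0.10 for each.

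Ankrd1, a nuclear ankyrin-repeat protein of muscle and stressed fibroblasts, was the least abundant of the 10 genes. Ankrd1 (ENSMUSG00000024803, chr19:36111961-36120099, minus strand) had 2 TEAD matches upstream of its RefSeq start. It had 33, 20 and 31 counts in WT and 80, 70 and 175 counts in the knockout. On the CPM scale these were 1.57, 0.949 and 1.47 in WT and 3.82, 3.32 and 8.33 in the knockout. Every knockout library was above every WT library, and knockout replicate 3 held more than the other 2 knockout libraries added together. The log2 fold change was 1.95 (SE 0.429, adjusted p = 0.0172), and 1.42 without knockout replicate 3, 1.32 with the term for Ddx3y and 1.09 by limma on log2(FPKM + 1). Of the fits with 1 library left out, the call was lost without WT replicate 1, 2 or 3 (adjusted p = 0.0552, 0.0721 and 0.0685).

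The distance of each knockout library from the WT mean showed that knockout replicate 3 did not differ from the others by a common factor. On the log2 scale it was 2.59 for Ankrd1, against 1.49 and 1.29 in knockout replicates 1 and 2. For Ctgf the distances were 1.55, 1.47 and 2.09 in knockout replicates 1 to 3. For Amotl2 they were 0.89, 0.99 and 1.36, and for Lats2 0.39, 0.47 and 0.89. Knockout replicate 3 was the furthest from WT for these 4 genes, and also for Tead1 (0.33), Wwtr1 (0.30) and Yap1 (0.12), at smaller distances. For Lats1 it was the nearest (0.06). For Cyr61 the distances were 0.63, 0.58 and 0.32, so that knockout replicate 3 was the nearest to WT. For Tead2 they were -0.86, -0.76 and -0.87, nearly the same in all 3 libraries.

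**Figure D3:**
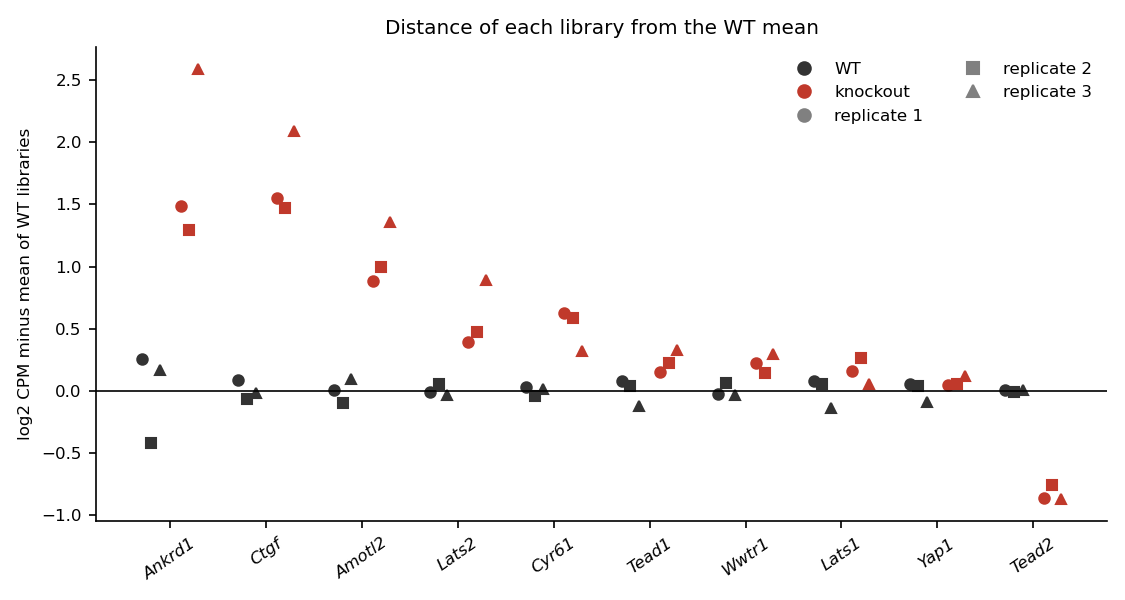
Distance of each of the 3 Rnf20 knockout libraries from the WT mean, in log2 CPM, for each of the 10 genes, with the 3 WT libraries for comparison around 0. Knockout replicate 3 is the furthest from 0 for Ankrd1 (2.59), Ctgf (2.09), Amotl2 (1.36) and Lats2 (0.89). The same holds for Tead1 (0.33), Wwtr1 (0.30), Yap1 (0.12) and, narrowly, Tead2 (-0.87). It is the nearest of the knockout libraries for Cyr61 (0.32) and Lats1 (0.06).

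The order of the transcript levels per length changed between genotypes. In WT, Cyr61 was highest at 272 ± 8.04 FPKM (SD, n = 3), followed by Tead2 (74.7 ± 2.33), Wwtr1 (73.3 ± 2.35), Yap1 (68.9 ± 3.47), Tead1 (41.5 ± 2.90), Ctgf (38.8 ± 2.01), Amotl2 (38.3 ± 2.49), Lats2 (18.0 ± 0.572), Lats1 (13.8 ± 1.12) and Ankrd1 (0.744 ± 0.183). Of the neighbours in this order, Tead2 and Wwtr1, Tead1 and Ctgf, and Ctgf and Amotl2 overlapped in their WT libraries, and the other neighbours did not. In the knockout Cyr61 was again highest at 387 ± 37.2 FPKM, and Ctgf was next at 128 ± 30.0 FPKM, ahead of Amotl2 at 88.5 ± 20.9 FPKM. Tead2 was seventh of 10 at 42.0 ± 1.12 FPKM. Ankrd1 remained lowest at 2.86 ± 1.50 FPKM.

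The other genes of the pathway were taken from 5 lists by role, also chosen with earlier results of these data known. Of all genes tested, 33.0% passed, 16.4% higher and 16.6% lower. The calls in these lists were lost with the term for Ddx3y, as were most calls over all genes. Among 17 other YAP and TAZ target genes, the remainder of a published target score, 8 were higher (47.1%), 1 was lower (5.88%) and 8 did not pass, with a median log2 fold change of 0.51. Ccdc80, a secreted matrix protein, had 402, 450 and 446 CPM in WT and 955, 839 and 1136 CPM in the knockout, and was the only gene of this list that met the study's thresholds (log2 fold change 1.17, SE 0.125, adjusted p = 0.00321). Igfbp3, which binds insulin-like growth factors, had 462, 440 and 455 CPM in WT and 750, 695 and 753 CPM in the knockout (log2 fold change 0.70, adjusted p = 0.00312). Ptpn14, a phosphatase that itself restrains YAP, had 291, 281 and 277 CPM in WT and 492, 511 and 394 CPM in the knockout (log2 fold change 0.72, adjusted p = 0.00641). Asap1, a GTPase-activating protein for ARF, rose by 0.60 on the log2 scale (adjusted p = 0.00349). These 4 genes showed no overlap between the genotypes, and each passed whichever library was left out, but with the term for Ddx3y their adjusted p was 0.0516 (Ccdc80), 0.0595 (Igfbp3 and Ptpn14) and 0.0639 (Asap1).

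The remaining target genes that passed did so with less margin. F3, which codes for tissue factor, had 33.2, 40.5 and 35.7 CPM in WT and 64.7, 65.0 and 179 CPM in the knockout, with a log2 fold change of 1.50 (adjusted p = 0.0331). Crim1, a transmembrane protein that binds BMPs, had 59.9, 59.6 and 57.4 CPM in WT and 107, 92.5 and 180 CPM in the knockout, with a log2 fold change of 1.10 (adjusted p = 0.0170). In both, knockout replicate 3 was the highest library, and without it the log2 fold change was 0.83 for F3 and 0.76 for Crim1. Gadd45a, a stress response gene, had a log2 fold change of 0.91 (adjusted p = 0.0356) and Myof, which codes for the membrane repair protein myoferlin, of 0.51 (adjusted p = 0.0159). Nt5e, the ectonucleotidase CD73, was lower, with 33.4, 45.1 and 38.8 CPM in WT and 24.3, 26.0 and 15.3 CPM in the knockout (log2 fold change -0.84, adjusted p = 0.0271). F3, Crim1 and Nt5e each lost the call without any one of the 3 WT replicates (adjusted p of 0.0956 to 0.112, 0.0633 to 0.0741 and 0.0544 to 0.0968), Gadd45a without any WT replicate or knockout replicate 2 (0.0509 to 0.121), and Myof without WT replicate 2 or 3 (0.0721 and 0.0731). F3 and Gadd45a also lost it with the replicate number as a block (0.0552 and 0.0517). The count of target genes that passed fell from 9 to between 4 and 5 without a WT replicate. Without knockout replicate 3 it was 15, of which 9 were higher and 6 were lower, a more even split. Over all genes, 1396 to 1947 passed without a WT replicate and 6510 of 13529 without knockout replicate 3.

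Among 15 other kinases and scaffolds of the Hippo cascade, 4 were higher, 2 were lower and 9 did not pass, with a median log2 fold change of 0.15. The share that passed, 40.0%, was near that of all genes. Mob1b, a coactivator of LATS kinases, had 59.9, 56.4 and 49.9 CPM in WT and 92.0, 93.4 and 101 CPM in the knockout (log2 fold change 0.78, adjusted p = 0.00357). Stk3, the MST2 kinase that activates LATS, had 61.3, 70.5 and 63.6 CPM in WT and 48.6, 48.8 and 44.7 CPM in the knockout (log2 fold change -0.46, adjusted p = 0.0101). These 2 passed whichever library was left out, but not with the term for Ddx3y (adjusted p = 0.0639 and 0.140). Of the WWC scaffolds, Wwc2 was higher (log2 fold change 0.34, adjusted p = 0.0111) and Wwc1, which codes for KIBRA, was lower (log2 fold change -0.48, adjusted p = 0.0184). Taok1, which activates MST kinases, and Map4k4, which acts on LATS in parallel to MST, had log2 fold changes of 0.39 (adjusted p = 0.0477) and 0.30 (adjusted p = 0.0294). The call was lost for Wwc2 without WT replicate 1 or 3 (0.0576 and 0.0581), for Wwc1 and Map4k4 without any WT replicate or knockout replicate 2 (0.0522 to 0.0730 and 0.0772 to 0.114), and for Taok1 without any library but knockout replicate 3 (0.0907 to 0.138). Wwc1 and Map4k4 also lost it with the replicate number as a block (0.0509 and 0.0803). The count of these genes that passed, 6 on all libraries, was 2 or 3 without a WT replicate. It was 11 without knockout replicate 3, with 8 higher and 3 lower. The count over all genes moved in the same way, to 1396 to 1947 without a WT replicate and to 6510 of 13529 without knockout replicate 3.

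Of 7 adaptors that bind YAP or LATS, 1 passed: Tjp1, which codes for the tight junction protein ZO-1, had 193, 211 and 190 CPM in WT and 293, 299 and 223 CPM in the knockout (log2 fold change 0.46, adjusted p = 0.0320), a call that was lost without any library but knockout replicate 3 (0.0769 to 0.117). Of the other TEAD factors and the VGLL cofactors, which compete with YAP and TAZ for TEAD, 4 were tested and 1 passed, with 2 passing without knockout replicate 3, Vgll3 and Tead3. Vgll3 had 102, 109 and 99.4 CPM in WT and 150, 161 and 257 CPM in the knockout (log2 fold change 0.87, adjusted p = 0.0205), a call that was lost without any one WT replicate (0.0716 to 0.0847). Vgll2 had at most 1 count in a library and was not tested. Of the other CCN genes, the family of Ctgf and Cyr61, 3 were tested and none passed by edgeR's test, with 2 at an unadjusted p under 0.05. Nov had a log2 fold change of -0.42 (adjusted p = 0.0626), Wisp1 of 0.38 (adjusted p = 0.0611) and Wisp2 of -0.35 (adjusted p = 0.275), and DESeq2 called 2 of the 3. Without knockout replicate 3 all 3 passed, with log2 fold changes of -0.59 for Nov, 0.30 for Wisp1 and -0.63 for Wisp2, and without knockout replicate 1 Wisp1 passed (adjusted p = 0.0353). Wisp3 had at most 3 counts in a library and was not tested.

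**Figure D4:**
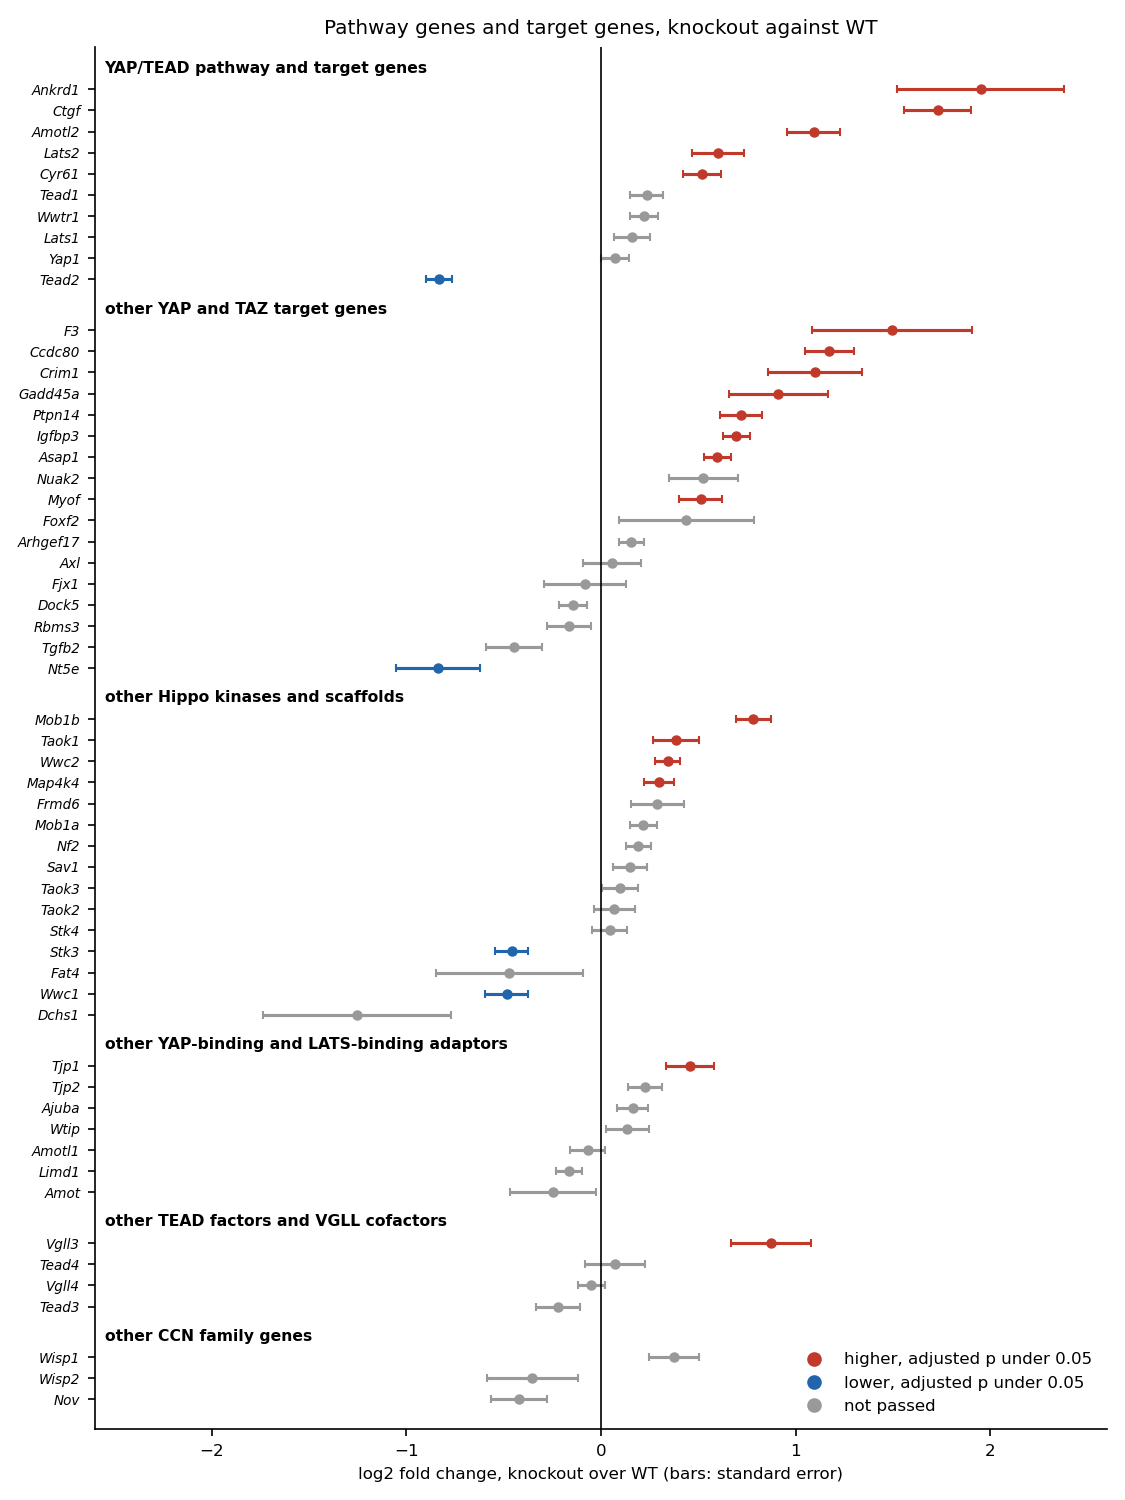
Log2 fold change of Rnf20 knockout over WT with its standard error for the 10 YAP/TEAD genes and for the tested genes of the other pathway lists, grouped by role, in red (higher) or blue (lower) at an adjusted p under 0.05 and in grey otherwise, by edgeR's quasi-likelihood test. Ankrd1 (1.95) and Ctgf (1.73) lie furthest to the right, and Tead2 (-0.83), Nt5e (-0.84), Stk3 (-0.46) and Wwc1 (-0.48) are the called genes left of 0.

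The lists of cell type markers were set beside these genes, since stromal cells of other kinds could carry the same transcripts. The 8 smooth muscle markers summed to 944, 850 and 960 CPM (again without TMM factors) in WT and to 1308, 1496 and 1966 in the knockout. Of the 8, 7 had a positive log2 fold change, though that of Des was only 0.01, and 50.0% of all genes tested had a positive value. Acta2, a smooth muscle actin that activated fibroblasts also express, made up most of that sum, with 510, 451 and 516 CPM in WT and 951, 1111 and 1403 CPM in the knockout (log2 fold change 1.23, adjusted p = 0.00394). Actg2 was also higher and Smtn was lower (adjusted p = 0.0330 and 0.0341), though both lost the call without any one WT replicate (0.0967 to 0.109 and 0.0881 to 0.109), Actg2 also without knockout replicate 2 (0.0779) and Smtn without knockout replicate 1 (0.0547). Tagln (log2 fold change 0.37, adjusted p = 0.220) and Cnn1 (0.57, adjusted p = 0.129) did not pass, and Cnn1 passed without knockout replicate 1 (adjusted p = 0.0469). Of the 10 fibroblast markers, Pdgfra and Thy1 were lower, with log2 fold changes of -1.22 (adjusted p = 0.0185) and -1.11 (adjusted p = 0.00251), and the other 8 did not pass. Pdgfra lost the call without any one WT replicate (0.0590 to 0.0677). With the term for Ddx3y, Acta2 (0.0662), Thy1 (0.0535), Actg2, Smtn and Pdgfra did not pass. The 8 macrophage markers summed to between 55.2 and 112 CPM in WT and to 89.2, 55.9 and 249 in the knockout, the 6 endothelial markers to between 49.7 and 60.1 and to 66.5, 52.3 and 31.6, and the 8 epithelial markers to between 47.9 and 52.7 and to 42.1, 29.1 and 5.45. No tested marker of these 3 lists passed. The endothelial sum was nearly all Tek, and the defining endothelial genes Pecam1 and Cdh5 had at most 11 counts in any library. No marker was at 0 in all 6 libraries. The smooth muscle sum, mostly Acta2, moved with Ctgf, Amotl2, Ankrd1 and Lats2, with knockout replicate 3 the highest for all. Its markers did not move together. Knockout replicate 3 was the highest library for Acta2, Tagln, Cnn1 and Myl9. It was the lowest for Smtn (23.4 CPM), Myh11 (5.86 CPM) and Des (4.19 CPM), and Actg2 was highest in knockout replicate 2. The part of smooth muscle cells in the levels of the 4 genes was not tested.

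The genes whose levels followed each target most closely over the 6 libraries were named by the Pearson correlation of log2 CPM among 11814 genes. The 6 points share their genotype and the position of knockout replicate 3, so the correlations describe the pattern only. Nearest to Cyr61 were Nsf (r = 0.998), Fam214a (0.996) and Ctnna1 (0.994), the last of which codes for α-catenin. Nearest to Ctgf were Mapre3 (r = 0.999), Msn (0.999), which codes for moesin, and Hist1h1c (0.999). Nearest to Ankrd1 were Sypl, Rnf19b and Hist1h2ab (r = 0.998 for each), and nearest to Amotl2 were Arhgap1, Pip4k2c and Npepps (r = 0.999 for each). Counts of histone genes are uncertain because near-identical copies share reads. Among the 10 genes themselves, Ctgf and Amotl2 were the most alike (r = 0.991), Ctgf and Cyr61 had an r of 0.839, and Ctgf and Tead2 of -0.982 over the 6 libraries.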

How the data were processed

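The data were RNA-seq libraries, 3 of WT and 3 of Rnf20 knockout cells. Genotype and replicate number came from the sample titles and day 3 from the labels. Libraries were made by the authors with a stranded poly(A) kit and sequenced as paired ends. The authors aligned reads to GRCm38/mm10 with HISAT2 2.1.0 and deposited raw whole-number counts for 16982 genes. The counting program and its strand setting are not given in the sources used here. The authors deposited FPKM values from Cufflinks 2.1.1 for 12633 genes. Columns in the deposited tables with the authors' own log2 fold changes and adjusted p-values were not used.

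Counts were tested in R 4.3.3 with edgeR 4.0.16 (TMM, filterByExpr defaults, quasi-likelihood test without covariates), with Benjamini-Hochberg adjustment over 13386 genes. A gene passed at an adjusted p under 0.05. The SE was obtained by dividing the size of the log2 fold change by the root of its F statistic. The study's thresholds were applied as an adjusted p under 0.01 with a log2 fold change beyond 1 either way and a mean of more than 1 FPKM for either genotype. Marker sums are CPM of the table totals without TMM factors. Ratios used FPKM within a library and a two-sided exact permutation test. The correlations used log2 CPM with a prior count of 2. Libraries held 20545442 to 21746898 counts. The floor of 3 counts covers counting error only, since PCR duplicates cannot be told apart. No library was a duplicate of another.

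Alternatives were RLE factors, library size only, DESeq2 1.42.0, no count filter, the replicate number as a block, a term for libraries with at least 10 Ddx3y counts, limma 3.58.1 on log2(FPKM + 1), and each library left out. The scripts were tested on simulated data. The text names all 10 genes, every other listed pathway gene that passed, the 3 genes most like each of Cyr61, Ctgf, Ankrd1 and Amotl2, and Rnf20. Other genes are named with values because a list's count or a neighbour turned on them, and were chosen after their values were seen. The 10 genes and the lists were chosen with earlier results of these data known. Promoter windows are from RefSeq, GRCm38.p6, and positions from GENCODE release M21.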

Additional observations from a re-analysis of the deposited data

How the results depend on the processing

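Over 13 alternatives for each of the 10 genes, 114 of 130 values kept direction and call, 12 lost the call, 4 gained it and 0 reversed. The number of all genes that passed, 4413, was 2875 with the replicate block, 109 with the Ddx3y term and 1396 (without WT replicate 3) to 6510 (without knockout replicate 3) when 1 library was left out. For the 10 genes the count of 6 was 2 with the Ddx3y term and 3 (without WT replicate 2 or 3) to 9 (without knockout replicate 3). The 9 other target genes fell to 0 with the Ddx3y term (6 at an unadjusted p under 0.05) and were 4 to 15 when 1 library was left out. The 6 Hippo kinases and scaffolds fell to 0 with the Ddx3y term (6 unadjusted) and were 2 to 11. The 1 adaptor was 2 with library size only, 0 with the Ddx3y term (1 unadjusted), 0 with limma on FPKM (1 unadjusted) and 0 to 2 when 1 library was left out. The 1 TEAD or VGLL gene was 0 with the Ddx3y term (0 unadjusted) and 0 to 2. The 0 CCN genes were 1 with library size only, 2 with DESeq2, 2 with the replicate block, 1 with limma and 0 to 3. The cause of these shifts was not tested. The 4 ratios kept their direction in every alternative.

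Same-numbered libraries did not deviate together (r = -0.066, 0.037 and 0.011), so the replicate numbers are not taken as pairs. Not every library correlated best with its own number. The replicate block left the count of the 10 genes at 6, and lowered the other target genes from 9 to 7 (without F3 and Gadd45a) and the Hippo kinases and scaffolds from 6 to 4 (without Wwc1 and Map4k4). With library size only, all genes shifted by -0.060 on the log2 scale, and the split was 1750 higher and 2684 lower in place of 2195 and 2218. Ankrd1, at 20 to 33 counts in WT, is limited by depth.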
